A study of Rattus norvegicus with 8 samples.

Results

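The genes of oxidative phosphorylation were followed in the outflow veins of rat arteriovenous fistulas (AVFs) treated with BAPN or with vehicle. They were found by name among the 32623 genes of the count tables, with patterns for the subunits of NADH dehydrogenase (Nduf), succinate dehydrogenase (Sdh), the cytochrome bc1 complex (Uqcr and Cyc1), cytochrome c oxidase (Cox4 to Cox8) and ATP synthase (Atp5), together with the protein-coding genes of mitochondrial DNA. Of 103 entries that matched, 1 is named as a pseudogene (Cox6c-ps1) and was set apart, which left 102 genes, 89 nuclear and 13 mitochondrial. Complex I holds 44 of them, complex II 4, complex III 11, complex IV 24 and complex V 19. The 102 entries carry 98 names, since 4 names (Uqcrb, Cox6b1, Ndufv3 and Ndufa10l1) each stand for 2 entries. The family was taken up because Ndufs5 and an entry named Uqcrb had stood out between the groups, so for these 2 entries the values are a description without a test.

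RNA was taken 21 days after the AVF was made by joining the epigastric vein to the femoral artery of Sprague Dawley rats, 1 rat per library. In 4 rats, 3 females and 1 male (BAPN 4), the vein was wrapped in a scaffold that released BAPN (β-aminopropionitrile), which inhibits lysyl oxidases, the enzymes that crosslink matrix collagen and elastin. In the 4 control rats, 2 females and 2 males (Vehicle 3 and Vehicle 4), it was wrapped in the same kind of scaffold without the drug. All 8 veins thus carried an AVF and a scaffold, and no vein without them was analysed here.

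The respiratory chain passes electrons from NADH (complex I) and succinate (complex II) through coenzyme Q, complex III and cytochrome c to complex IV, which reduces oxygen. Complexes I, III and IV pump protons across the inner mitochondrial membrane, and complex V, ATP synthase, lets them flow back and makes ATP. Most subunits are encoded in the nucleus and imported, while a small core of the most hydrophobic ones is encoded and translated inside the organelle, so that each complex but complex II needs transcripts of both genomes. In the vessel wall, smooth muscle and endothelial cells cover much of their ATP demand by glycolysis and keep mitochondria also for signaling and for the synthesis of building blocks.

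The nuclear members have no shared promoter in the way that the mitochondrial genes share the promoters of a single circular genome. The factors best known for nuclear respiratory genes are NRF1, the ETS factor GABP (also called NRF2) and YY1. Promoter windows from RefSeq, 250 bases before to 50 bases after the start of a gene on assembly GRCr8, were found for 73 of the 85 names of nuclear members. On either strand, the core of the NRF1 motif, a palindrome that is in capitals in the first 4 sequences printed here, was found in 4 of the 73 windows, or 5.48%, and in 0.852% of all 33469 windows. CCGGAAG (ETS) was found in 19 windows of members, or 26.0%, and in 8.75% of all windows. AAGATGGC (YY1) was found in 16 windows of members, or 21.9%, and in 3.17% of all windows. CCAAT (NFY), searched alongside, was found in 34.2% of the windows of members and in 37.5% of all windows. The last letters of the ETS motif are the first of the YY1 motif, so that a stretch of bases can hold both. At least 1 of the first 3 motifs was found in 43.8% of the windows of members and in 12.0% of all windows. Among windows of genes tested here the shares were 1.88% (NRF1), 17.4% (ETS), 5.43% (YY1) and 37.0% (NFY).

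The 150 bases before the start are shown, 5′ to 3′ on the strand of the gene, for the 4 members with the NRF1 letters, for Ndufs5, which led to the choice of the family, and for Uqcrh, a called member with the ETS letters. Capitals mark the letters of NRF1, ETS and YY1.
Atp5mc2 (chr7:135678219-135678368, minus strand): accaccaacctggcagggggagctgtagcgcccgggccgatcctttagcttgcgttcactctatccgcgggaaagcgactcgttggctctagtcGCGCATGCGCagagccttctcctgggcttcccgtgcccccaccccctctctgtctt
Atp5me (chr14:1464710-1464859, plus strand): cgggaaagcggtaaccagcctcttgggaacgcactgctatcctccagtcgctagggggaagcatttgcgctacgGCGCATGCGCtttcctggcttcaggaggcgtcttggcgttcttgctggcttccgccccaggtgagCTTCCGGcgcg
Atp5po (chr11:44657484-44657633, minus strand): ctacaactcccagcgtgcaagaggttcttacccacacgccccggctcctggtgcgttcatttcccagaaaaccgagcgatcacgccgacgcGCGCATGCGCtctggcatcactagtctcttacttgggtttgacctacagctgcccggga
Ndufa11 (chr9:1637464-1637613, plus strand): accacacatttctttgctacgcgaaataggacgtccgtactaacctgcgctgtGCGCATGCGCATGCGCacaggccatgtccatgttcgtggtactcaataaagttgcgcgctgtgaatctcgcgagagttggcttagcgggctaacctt
Ndufs5 (chr5:141264403-141264552, minus strand): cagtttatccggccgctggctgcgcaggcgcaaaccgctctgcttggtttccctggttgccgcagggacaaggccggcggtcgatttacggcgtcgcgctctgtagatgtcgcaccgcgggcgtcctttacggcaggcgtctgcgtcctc
Uqcrh (chr5:134790883-134791032, minus strand): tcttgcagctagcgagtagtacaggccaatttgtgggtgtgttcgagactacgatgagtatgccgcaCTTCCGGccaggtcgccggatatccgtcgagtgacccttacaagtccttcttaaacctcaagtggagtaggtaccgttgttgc
The NRF1 letters are palindromic and stand once in Atp5mc2 and Atp5po, once beside an ETS match in Atp5me, and in a pair of overlapping copies in Ndufa11. The stretch of Ndufs5 holds none of the 3 motifs. Members with and without a motif had similar medians in the comparison of the groups, which were not tested against each other. The median log2 fold change of tested nuclear members was 0.24 with the NRF1 letters (4 members) and 0.33 without them (62 members), 0.34 with and 0.32 without the ETS letters, and 0.30 with and 0.32 without the YY1 letters.

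The 8 libraries held 45039451 to 52241007 counted reads with BAPN and 19548203 to 22442050 with vehicle, so the totals separated the groups and a difference in library preparation or sequencing cannot be told apart from the treatment. Levels are given as CPM, the reads of a gene relative to the TMM-adjusted total of its library, and group levels as mean ± SD (n = 4). They are not corrected for gene length, so that a gene is compared between libraries and not with other genes. Log2 fold changes compare BAPN with vehicle and carry a standard error from limma-voom. A gene was called at a false discovery rate (FDR) below 0.05 in edgeR's quasi-likelihood test over the 11682 genes whose base mean reached 100. This filter passed 92 members, all 13 mitochondrial genes and 79 of the 89 nuclear ones.

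Of the 79 nuclear members tested, 76 had a positive log2 fold change, 19 were called higher with BAPN and 0 were called lower (0 lower also at an unadjusted p under 0.05 and by DESeq2, which called 31 higher). Without the 2 entries that led to the choice, 17 of 77 were called higher by edgeR and 29 by DESeq2. Among all 11682 tested genes, 6028 had a positive value, edgeR called 16.8%, with 7.50% higher and 9.25% lower, and DESeq2 called 13.3% higher. All 13 mitochondrial genes had a positive log2 fold change, and 2 of them, Mt-nd4 and Mt-nd3, were called higher. The median log2 fold change was 0.34 over the nuclear members (0.32 without the 2 entries that led to the choice) and 0.49 over the mitochondrial ones, and it was 0.02 over all tested genes. Since the family was picked on this contrast, its counts describe the members and are not evidence of their direction. In RNA from a whole vessel, more transcripts in each cell and more cells of a kind that is rich in them cannot be told apart. With total counts in place of TMM scaling, 71 of the 79 nuclear and 12 of the 13 mitochondrial members stayed positive (13 and 1 called higher), and of the calls over all genes 508 were higher and 1160 lower, against 876 and 1081 with TMM.

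The differences were not even among the BAPN veins. The median difference of the nuclear members from their vehicle mean, on the log2(CPM + 1) scale, read 0.18, 0.14, 0.55 and 0.44 across BAPN 1 to 4, against 0.01, 0.12, 0.03 and -0.15 across Vehicle 1 to 4. For the mitochondrial genes it read 0.02, 0.20, 0.77 and 0.76 across BAPN 1 to 4, against 0.01, 0.10, -0.16 and 0.05 across Vehicle 1 to 4. BAPN 3, from a female, and BAPN 4, from a male, thus stood above the other libraries in both sets, while BAPN 1 lay within the vehicle range for the mitochondrial genes. BAPN 3 was the highest BAPN library for 57 of the 79 nuclear members and for 9 of the 13 mitochondrial ones, against 27.9% of all tested genes. Without BAPN 3 the calls were 7 nuclear and 0 mitochondrial, without BAPN 4 also 7 and 0, and without Vehicle 1 they were 5 and 0, the 2 entries that led to the choice included. Calls over all genes fell as well, from 1957 to 745, 906 and 397 in these 3 fits. Among the females alone, 3 BAPN against 2 vehicle rats, 69 of the 79 nuclear and 12 of the 13 mitochondrial members stayed positive. Of these members 2 and 0 were called, out of 89 calls over all genes, and the 2 are the entries that led to the choice. The medians over the tested nuclear members of complexes I to V were 0.28, 0.10, 0.13, 0.29 and 0.18 among females. Over all rats they were 0.36, 0.29, 0.26, 0.33 and 0.30.

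**Figure D1:**
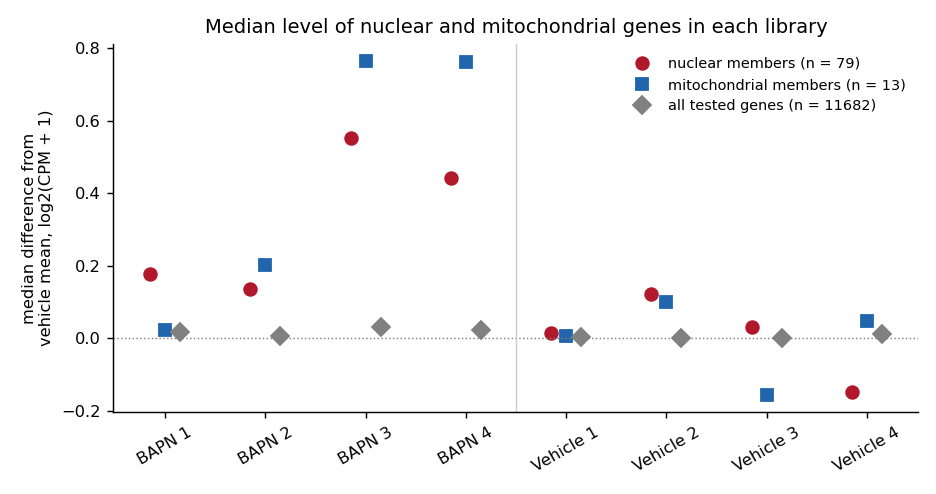
Median difference from the vehicle mean (log2(CPM + 1), vertical axis) in each of the 8 libraries (horizontal axis) for the 79 nuclear members (circles), the 13 mitochondrial members (squares) and all 11682 tested genes (diamonds). BAPN 3 and BAPN 4 stand at 0.55 and 0.44 for nuclear and at 0.77 and 0.76 for mitochondrial members, while the median of all genes stays near 0 in each library.

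As a share of all counted reads, the 13 mitochondrial genes made up 4.62%, 5.08%, 7.80% and 6.89% across BAPN 1 to 4, against 4.82%, 5.41%, 4.53% and 4.46% across Vehicle 1 to 4. The nuclear members together made up 0.676%, 0.653%, 0.831% and 0.749% across BAPN 1 to 4, against 0.607%, 0.679%, 0.624% and 0.491% across Vehicle 1 to 4. Both shares overlapped between the groups through BAPN 1 and BAPN 2. The ratio of mitochondrial to nuclear counts ranged from 6.84 to 9.39 with BAPN and from 7.25 to 9.09 with vehicle, so the balance of the genomes overlapped as well.

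Markers of vessel wall and blood cells were read in the same libraries. Over all tested genes edgeR called 9.25% lower and 7.50% higher, and DESeq2 called 14.5% lower and 13.3% higher. All 5 smooth muscle and all 4 endothelial markers that were found by name had counts in every library. Of the smooth muscle markers 3 of 5 (Cnn1, Smtn and Myh11) were called lower with BAPN, and of the endothelial markers 2 of 4 (Vwf and Tek, and 3 by DESeq2). The summed level of the endothelial list was 185 to 356 CPM with BAPN and 454 to 1157 CPM with vehicle, without overlap. The smooth muscle list summed to 1398 to 3908 CPM with BAPN and 2860.0 to 5483 CPM with vehicle. Of the adipocyte list, 5 of 6 tested markers had a negative log2 fold change (median of the list -1.48), and edgeR called 1 (Plin1) and DESeq2 4 of them lower. Its sum, 1327 to 3068 CPM with BAPN and 635 to 1999 CPM with vehicle, was mostly Fabp4, the 1 marker with a positive value (log2 fold change 0.70, FDR 0.269). T cell markers summed to 21.1 to 66.1 CPM with BAPN and 11.6 to 25.6 CPM with vehicle, and 1 of 4 (Cd2) was called higher by edgeR and 2 by DESeq2. Of the B cell markers only Cd79b was tested, and it was called higher. The macrophage, fibroblast, erythrocyte and skeletal muscle lists had no called marker by edgeR, although DESeq2 called 2 fibroblast and 1 skeletal muscle marker lower, and their sums overlapped. Ucp1, which marks brown adipocytes rich in mitochondria, had 0 counts in all 8 libraries, while Cidea, the other brown adipocyte marker, was at 3.36 to 12.7 CPM with BAPN and 3.42 to 8.51 CPM with vehicle (log2 fold change 0.49, FDR 0.429). The part of the cell makeup in the levels of the members was not tested.

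Complex I takes electrons from NADH. Ndufs5, an accessory subunit of its membrane arm on the intermembrane side, was at 32.1, 30.3, 41.6 and 36.9 CPM for BAPN 1 to 4 against 13.6, 12.4, 14.2 and 11.8 CPM for Vehicle 1 to 4. All BAPN veins lay above all vehicle veins, and the means were 35.2 ± 5.09 CPM (BAPN) against 13.0 ± 1.06 CPM (vehicle) (log2 fold change 1.44, standard error 0.16). Of the other 32 tested nuclear subunits of complex I, 31 had a positive log2 fold change and 6 were called higher (18.8%, against 7.50% of all tested genes). All of these 6 are accessory subunits or a paralog of one, which assemble and stabilize the complex but carry no redox center. Ndufb3, a small subunit of the membrane arm, was at 40.4, 39.8, 51.2 and 48.6 CPM for BAPN 1 to 4 against 28.5, 22.2, 22.7 and 23.5 CPM for Vehicle 1 to 4, with all BAPN veins above all vehicle veins (log2 fold change 0.89, standard error 0.14, FDR 0.00863). Ndufs5 aside, it was the only nuclear member of complex I that was called with each library left out in turn. The next were Ndufa5 of the peripheral arm (log2 fold change 0.58, standard error 0.15, FDR 0.0266) and Ndufa6 (log2 fold change 0.56, standard error 0.16, FDR 0.0405). Smaller calls were those of Ndufb9 (log2 fold change 0.53, standard error 0.15, FDR 0.0407), Ndufb8 (log2 fold change 0.46, standard error 0.12, FDR 0.0334) and Ndufa10l1 (log2 fold change 0.44, standard error 0.13, FDR 0.0451). Of the 8 fits that each left out 1 library, Ndufa5 was called in 3, Ndufa6, Ndufb9 and Ndufb8 in 2 each, and Ndufa10l1 in 0.

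The 7 nuclear core subunits of complex I, which carry the flavin and the iron-sulfur clusters or line the quinone site, had positive log2 fold changes of which 0 passed the threshold in edgeR, while 5 had an unadjusted p under 0.05 (17.4% of all tested genes did so and were higher) and DESeq2 called 5. Every BAPN library lay above every vehicle library for Ndufs1, Ndufs8 and Ndufv2, as for 12.7% of all tested genes. Ndufs1, which carries several iron-sulfur clusters, had a log2 fold change of 0.32 (FDR 0.0569), and Ndufs3 had one of 0.54 (FDR 0.0564). The values were 0.38 for Ndufs8 (FDR 0.0696) and 0.32 for Ndufv2 (FDR 0.0621). Ndufv1, which binds NADH and the flavin, was at 76.3, 62.7, 74.5 and 76.4 CPM for BAPN 1 to 4 against 69.7, 72.4, 78.3 and 67.3 CPM for Vehicle 1 to 4, with overlap between the groups (log2 fold change 0.01, standard error 0.10, FDR 0.952). Ndufs7, which carries the last iron-sulfur cluster, overlapped as well (log2 fold change 0.01, standard error 0.18, FDR 0.980). Ndufa11 was the only nuclear subunit of complex I with a negative value (log2 fold change -0.07, standard error 0.13, FDR 0.693).

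Complex II feeds electrons from succinate and is also an enzyme of the citric acid cycle. It has 4 subunits, all nuclear. Sdhb, the iron-sulfur subunit, was at 103, 96.2, 128 and 134 CPM for BAPN 1 to 4 against 84.1, 91.7, 79.5 and 72.6 CPM for Vehicle 1 to 4 and was called higher (log2 fold change 0.49, standard error 0.14, FDR 0.0387). Each BAPN vein was above each vehicle vein, by the smallest margin between BAPN 2 and Vehicle 2. The call of Sdhb was kept in 3 of the 8 fits that each left out 1 library. It was lost with total counts (edgeR FDR 0.0579) and with sex as a covariate (edgeR FDR 0.0708). Sdha, the flavin subunit and the one with the most reads, was at 153, 142, 150.4 and 184 CPM for BAPN 1 to 4 against 171, 149, 122 and 139 CPM for Vehicle 1 to 4, with partial overlap (log2 fold change 0.12, standard error 0.14, FDR 0.555). The membrane anchors Sdhc (log2 fold change 0.21, standard error 0.13, FDR 0.259) and Sdhd (log2 fold change 0.36, standard error 0.19, FDR 0.191) also overlapped between the groups.

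Complex III passes electrons from coenzyme Q to cytochrome c. Apart from the Uqcrb entry that led to the choice, 9 nuclear entries were tested, all with positive values, and 1 was called (11.1%, against 7.50% of all tested genes). Uqcrh, the hinge protein at the docking site of cytochrome c, was at 91.3, 82.5, 139 and 109.7 CPM for BAPN 1 to 4 against 60.1, 75.5, 69.9 and 58.7 CPM for Vehicle 1 to 4 (log2 fold change 0.68, standard error 0.17, FDR 0.0297). Its groups did not overlap, and the largest value was that of BAPN 3. The catalytic subunits Cyc1, cytochrome c1, (log2 fold change 0.22, standard error 0.15, FDR 0.292) and Uqcrfs1, the Rieske iron-sulfur protein, (log2 fold change 0.28, standard error 0.14, FDR 0.169) were not called. Uqcrc2, a core protein and the entry with the most reads among them, was at 112 ± 5.06 CPM (BAPN) against 95.6 ± 9.47 CPM (vehicle) (log2 fold change 0.23, standard error 0.11, FDR 0.145).

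**Figure D2:**
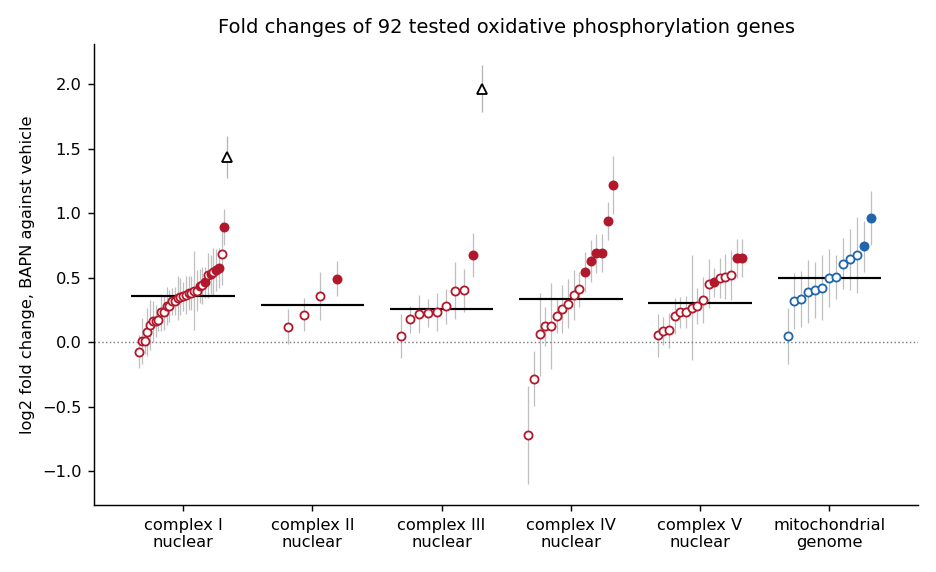
Log2 fold changes of BAPN against vehicle (vertical axis) of the 92 tested members by complex and genome (horizontal axis), with standard errors as gray bars and the median of each set as a black line. Filled circles were called at an FDR below 0.05, and triangles are Ndufs5 and the Uqcrb entry, which led to the choice. The medians of the nuclear sets lie between 0.26 and 0.36 and that of the mitochondrial genes at 0.49, and 89 of the 92 values are above 0.

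Complex IV reduces oxygen to water. Of its 16 tested nuclear members, 6 were called higher (37.5%, against 7.50% of all tested genes). Cox7a2l2, whose name places it beside the subunit Cox7a2, was at 52.3, 61.3, 95.0 and 76.6 CPM for BAPN 1 to 4 against 27.0, 37.3, 35.6 and 22.7 CPM for Vehicle 1 to 4 (log2 fold change 1.22, standard error 0.23, FDR 0.0133). Cox6b1, a subunit on the intermembrane side, has a pair of entries, and the larger of them was at 102, 100.3, 134 and 132 CPM for BAPN 1 to 4 against 63.9, 69.7, 59.8 and 50.5 CPM for Vehicle 1 to 4 (log2 fold change 0.94, standard error 0.15, FDR 0.00892). Cox7a2l2 and this entry were called with each library left out in turn. The small subunits Cox7b and Cox7c both had all BAPN veins above all vehicle veins. Cox7b was at 63.1, 70.8, 102 and 76.0 CPM for BAPN 1 to 4 against 49.2, 51.0, 47.5 and 45.2 CPM for Vehicle 1 to 4 (log2 fold change 0.69, standard error 0.15, FDR 0.0193), and Cox7c was at 89.6, 96.3, 138 and 114 CPM for BAPN 1 to 4 against 71.1, 65.9, 75.8 and 58.3 CPM for Vehicle 1 to 4 (log2 fold change 0.69, standard error 0.15, FDR 0.0211). The smallest calls were those of Cox6c (log2 fold change 0.63, standard error 0.16, FDR 0.0333) and of Cox5b, which binds zinc (log2 fold change 0.54, standard error 0.15, FDR 0.0403). Cox4i1, the nuclear subunit with the most reads, was at 280.3, 248, 379.9 and 361 CPM for BAPN 1 to 4 against 254.9, 318, 282 and 205 CPM for Vehicle 1 to 4 and overlapped between the groups (log2 fold change 0.26, standard error 0.19, FDR 0.337).

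Several complex IV subunits have isoforms for a tissue or for low oxygen. Cox4i2, the form for low oxygen and lung, was at 6.61, 5.50, 6.15 and 5.67 CPM for BAPN 1 to 4 against 5.36, 2.12, 7.46 and 6.99 CPM for Vehicle 1 to 4 (log2 fold change 0.12, standard error 0.33, FDR 0.817). Cox6b2, best known from testis, was at 3.70, 4.97, 3.79 and 3.72 CPM for BAPN 1 to 4 against 4.89, 2.61, 9.22 and 9.94 CPM for Vehicle 1 to 4, where the log2 fold change was -0.72 (FDR 0.214). Both vehicle males were above the BAPN range, a vehicle female was within it and the other below it. Cox6b2 was called lower in 1 setting, without Vehicle 2. The ubiquitous Cox6a1 (log2 fold change 0.12, standard error 0.15, FDR 0.596) and Cox8a (log2 fold change 0.30, standard error 0.19, FDR 0.259) overlapped between the groups, as did Cox7a2l, which acts in the assembly of supercomplexes (log2 fold change 0.20, standard error 0.13, FDR 0.313). The muscle forms Cox6a2, Cox7a1 and Cox8b were under the filter, with at most 42 counts in any library. Ndufa4, now placed in complex IV, was at 54.4 ± 8.88 CPM (BAPN) against 40.9 ± 3.20 CPM (vehicle), without overlap (log2 fold change 0.41, standard error 0.14, FDR 0.0592). Its hypoxia-induced paralog Ndufa4l2 was at 31.4, 20.2, 40.7 and 47.1 CPM for BAPN 1 to 4 against 40.1, 28.8, 45.4 and 19.4 CPM for Vehicle 1 to 4, with overlap between the groups (log2 fold change 0.06, standard error 0.32, FDR 0.905).

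Complex V, ATP synthase, has a catalytic F1 head, a membrane-embedded Fo rotor and stalks that join them. Of its 16 tested nuclear members, 16 had a positive value and 3 were called (18.8%, against 7.50% of all tested genes). Atp5pd, of the peripheral stalk, was at 101, 94.2, 141 and 132 CPM for BAPN 1 to 4 against 73.8, 72.8, 83.1 and 67.8 CPM for Vehicle 1 to 4 (log2 fold change 0.66, standard error 0.15, FDR 0.0230). Atp5mf, a small membrane subunit, was at 95.4, 103, 151 and 130.2 CPM for BAPN 1 to 4 against 73.7, 83.2, 77.2 and 71.7 CPM for Vehicle 1 to 4 (log2 fold change 0.65, standard error 0.15, FDR 0.0247). Atp5f1c, the central shaft that turns inside the head, was at 123, 127, 142 and 143 CPM for BAPN 1 to 4 against 91.4, 104, 105 and 87.3 CPM for Vehicle 1 to 4 (log2 fold change 0.46, standard error 0.11, FDR 0.0246). These 3 did not overlap between the groups. Every BAPN library lay above every vehicle library for 4 of the 16 tested nuclear members of complex V, and for 12.7% of all tested genes. The catalytic β subunit Atp5f1b, with the most reads, was at 680.4, 632, 791 and 819 CPM for BAPN 1 to 4 against 611, 731, 530.0 and 464 CPM for Vehicle 1 to 4 (log2 fold change 0.32, standard error 0.18, FDR 0.215), and the α subunit Atp5f1a was at 379.5 ± 29.0 CPM (BAPN) against 323 ± 33.8 CPM (vehicle) (log2 fold change 0.23, standard error 0.13, FDR 0.220). The 3 genes that encode the same ring subunit gave log2 fold changes of 0.09 for Atp5mc1 (FDR 0.583), 0.20 for Atp5mc2 (FDR 0.336) and 0.09 for Atp5mc3 (FDR 0.652). Atp5if1, which inhibits the enzyme when it runs backward, was at 113, 108, 157 and 167 CPM for BAPN 1 to 4 against 101, 115, 87.4 and 80.6 CPM for Vehicle 1 to 4 and overlapped between the groups (log2 fold change 0.51, standard error 0.18, FDR 0.0737).

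Mt-co1, the catalytic subunit of complex IV, was at 14421, 15363, 25257 and 24885 CPM for BAPN 1 to 4 against 15465, 17060.3, 13324 and 13866 CPM for Vehicle 1 to 4. It overlapped between the groups, since BAPN 1 and BAPN 2 lay within the vehicle range and BAPN 3 and BAPN 4 above it (log2 fold change 0.42, standard error 0.25, FDR 0.281). Mt-nd4, a proton-pumping subunit of complex I, was at 334, 453, 686 and 633 CPM for BAPN 1 to 4 against 248, 299, 247 and 288 CPM for Vehicle 1 to 4, with all BAPN veins above all vehicle veins (log2 fold change 0.96, standard error 0.21, FDR 0.0246). Mt-nd3 was at 385, 467, 810.0 and 582 CPM for BAPN 1 to 4 against 312, 359, 332 and 339 CPM for Vehicle 1 to 4, also without overlap (log2 fold change 0.74, standard error 0.20, FDR 0.0462). The call of Mt-nd4 was lost without BAPN 3, BAPN 4, Vehicle 1 or Vehicle 3, and that of Mt-nd3 was kept only without BAPN 1. Groups did not overlap either for Mt-nd4l, Mt-co2 and Mt-atp8. Every BAPN library thus lay above every vehicle library for 5 of the 13 mitochondrial genes, as for 12.7% of all tested genes. Mt-nd4l was at 176, 177, 171 and 277 CPM for BAPN 1 to 4 against 147, 120.5, 102 and 155 CPM for Vehicle 1 to 4 (log2 fold change 0.61, standard error 0.19, FDR 0.0627). Mt-co2 was at 5503, 6277, 10939 and 9334 CPM for BAPN 1 to 4 against 5149, 5457, 4791 and 5144 CPM for Vehicle 1 to 4 (log2 fold change 0.64, standard error 0.24, FDR 0.102). Mt-atp8 was at 301, 290.5, 321 and 428 CPM for BAPN 1 to 4 against 259, 217, 192 and 277 CPM for Vehicle 1 to 4 (log2 fold change 0.50, standard error 0.17, FDR 0.0714).

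The other mitochondrial genes gave smaller or less even differences. Mt-nd6, the member encoded on the opposite strand of the circle, was at 19.7, 23.3, 40.0 and 41.5 CPM for BAPN 1 to 4 against 19.9, 21.7, 15.8 and 20.5 CPM for Vehicle 1 to 4 (log2 fold change 0.68, standard error 0.29, FDR 0.0867). Mt-nd2 (log2 fold change 0.49, standard error 0.22, FDR 0.161), Mt-co3 (log2 fold change 0.40, standard error 0.22, FDR 0.229) and Mt-atp6 (log2 fold change 0.39, standard error 0.24, FDR 0.289) overlapped between the groups. The same held for Mt-cyb, the mitochondrial subunit of complex III (log2 fold change 0.34, standard error 0.22, FDR 0.309), and for Mt-nd5 (log2 fold change 0.32, standard error 0.22, FDR 0.331). Mt-nd1 was at 2895, 3375, 5116 and 4678 CPM for BAPN 1 to 4 against 3684, 4538, 3576 and 3759.8 CPM for Vehicle 1 to 4 (log2 fold change 0.05, standard error 0.22, FDR 0.899), and BAPN 1 and BAPN 2 were below all 4 vehicle veins. Its log2 fold change was -0.02 with total counts and -0.12 among females. The genes of 1 polycistronic circle thus spanned log2 fold changes from 0.05 to 0.96. The ends of Mt-atp8 and Mt-atp6, and of Mt-nd4l and Mt-nd4, overlap on the circle, and how reads in the overlaps or from nuclear copies of mitochondrial DNA were counted is not given in the sources used here.

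**Figure D3:**
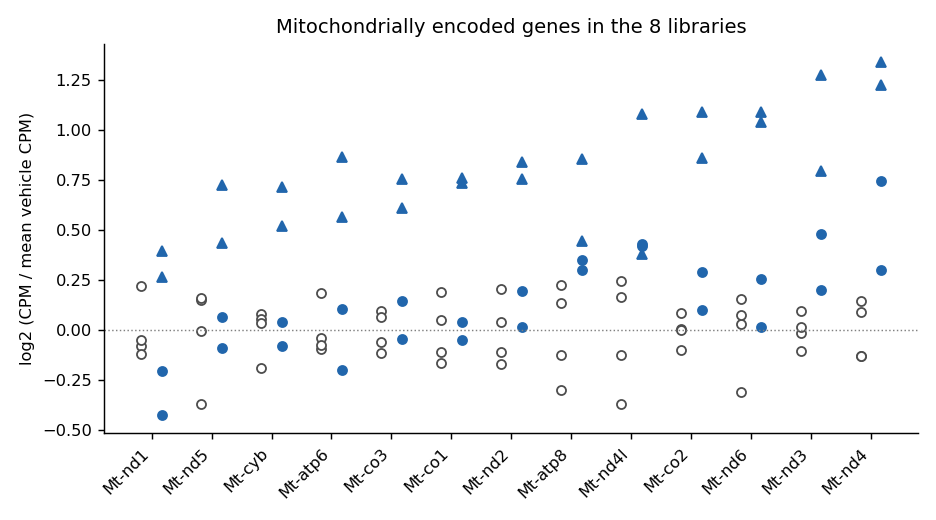
Level of each of the 13 mitochondrial genes (horizontal axis, ordered by fold change) in the 8 libraries, as log2 of the CPM over the mean vehicle CPM (vertical axis). Open circles are the 4 vehicle libraries, filled circles BAPN 1 and BAPN 2, and triangles BAPN 3 and BAPN 4. The triangles lie above all open circles for 13 of the 13 genes, and for Mt-nd1 both filled circles lie below them.

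The entry named Uqcrb that led to the choice, ENSRNOG00000032204, was at 32.8, 36.3, 45.4 and 43.8 CPM for BAPN 1 to 4 against 9.60, 9.45, 10.3 and 11.1 CPM for Vehicle 1 to 4. The 2 groups were far apart, at 39.6 ± 5.98 CPM (BAPN) against 10.1 ± 0.752 CPM (vehicle) (log2 fold change 1.97, standard error 0.18). The other entry of that name, ENSRNOG00000024967, was at 26.5, 27.9, 40.1 and 38.6 CPM for BAPN 1 to 4 against 35.1, 33.8, 32.1 and 27.8 CPM for Vehicle 1 to 4, with overlap and a log2 fold change of 0.05. Uqcrb encodes a subunit of complex III near the quinone site. Of the reads on both entries, the first held 55.4%, 56.6%, 53.1% and 53.2% across BAPN 1 to 4, against 21.5%, 21.9%, 24.4% and 28.5% across Vehicle 1 to 4. The 95% Wilson intervals, which cover counting error only, ran from 51.5% to 58.3% over the BAPN libraries and from 19.0% to 31.7% over the vehicle libraries. Summed over both entries, Uqcrb was at 72.8 ± 13.0 CPM (BAPN) against 42.3 ± 2.46 CPM (vehicle), which is 0.78 on the log2 scale. The value of the gene by name was thus less than that of the first entry and more than that of the second.

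Cox6b1 showed the same pattern with a smaller shift. The entry ENSRNOG00000024309 held 92.8% to 93.1% of the reads on both entries with BAPN and 83.0% to 87.2% with vehicle. The smaller entry, ENSRNOG00000034161, was at 7.74, 7.76, 9.85 and 9.75 CPM for BAPN 1 to 4 against 11.8, 14.3, 8.76 and 7.80 CPM for Vehicle 1 to 4, with overlap between the groups (log2 fold change -0.28, standard error 0.21, FDR 0.379). Summed over both entries, Cox6b1 was at 126 ± 19.4 CPM (BAPN) against 71.7 ± 10.9 CPM (vehicle, log2 fold change 0.81, edgeR FDR 0.0142). RefSeq lists Uqcrb-ps1 and Cox6b1-ps1, pseudogenes with the parent's name as a synonym. Which entry of the tables is the parent cannot be told from the tables, so the values of single entries of these 2 names are uncertain. The sums do not depend on how reads were divided between the 2 entries. Reads that were dropped or counted on other copies are not in the sums, and RefSeq names 2 pseudogenes for Uqcrb.

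**Figure D4:**
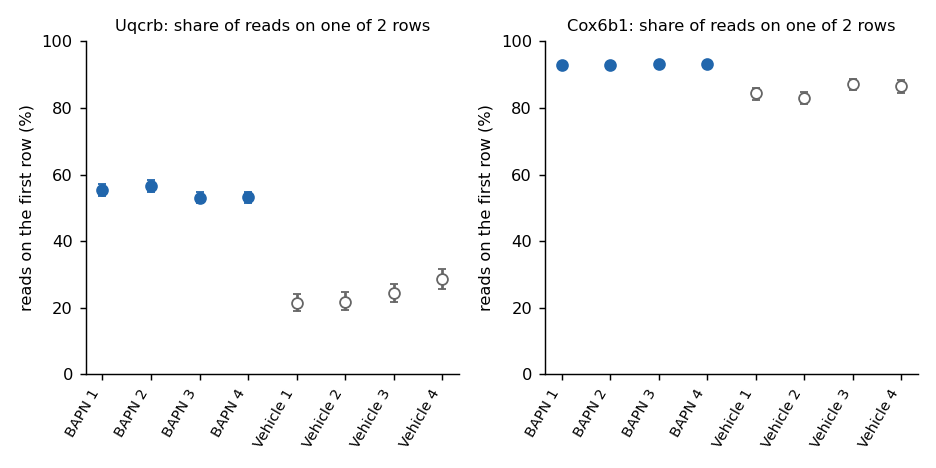
Share of reads (%, vertical axes) that fell on the first of 2 entries with the same name, for Uqcrb (left) and Cox6b1 (right), in each library (horizontal axes). Filled circles are BAPN, open circles vehicle, and bars are 95% Wilson intervals. The share is 53.1% to 56.6% with BAPN against 21.5% to 28.5% with vehicle for Uqcrb, and 92.8% to 93.1% against 83.0% to 87.2% for Cox6b1.

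Short, highly transcribed genes such as these leave many processed pseudogenes, and RefSeq names at least 1 for 40 of the 98 member names and 92 in all, up to 8 for a single name (Atp5mg). Ndufs5 has 2. Over all 11682 tested genes, those with 0, 1, 2 and 3 or more named pseudogenes had median log2 fold changes of -0.02, 0.17, 0.27 and 0.37, and 5.75%, 13.5%, 24.2% and 34.7% of them were called higher. The nuclear members had medians of 0.29, 0.35, 0.34 and 0.46 in the same 4 classes, with 8 of 40, 3 of 15, 2 of 12 and 6 of 12 called. The 2 calls in the class of 2 pseudogenes are Ndufs5 and the Uqcrb entry, and without them it was 0 of 10. The class of 3 or more holds Cox6c, Cox7b, Cox7c, Atp5mf, Ndufa5 and Atp5f1c, all called, beside 6 members that were not. Members without a named pseudogene thus also had a positive median, and Ndufb3, Uqcrh, Cox7a2l2 and Sdhb are among their 8 calls. How the counting treated reads that match a gene and its pseudogenes is not given in the sources used here, and the part of such reads in the calls was not tested.

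**Figure D5:**
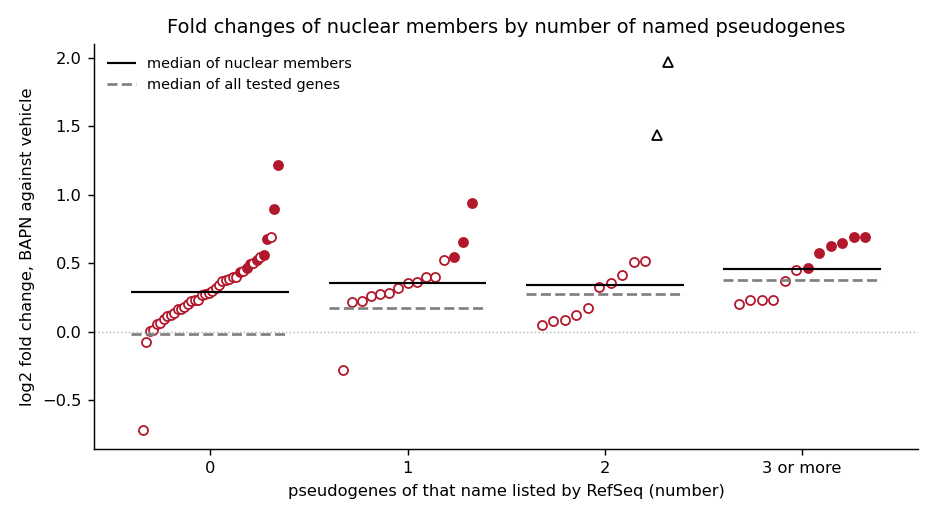
Log2 fold changes of the 79 tested nuclear members (vertical axis) by the number of pseudogenes that RefSeq names for the gene (horizontal axis). Filled circles were called, triangles are Ndufs5 and the Uqcrb entry, solid lines are medians of the members and dashed lines medians of all tested genes. Member medians go from 0.29 to 0.46 and those of all tested genes from -0.02 to 0.37.

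Of the 10 nuclear members under the filter, Cox7b2 and Cox8c had 0 counts in all libraries, which allows up to 0.0589 to 0.148 CPM in a library (3 counts, for counting error only). Ndufa1, a subunit that complex I cannot be built without, had 0 or 1 counts per library under its name. Atp5pb, the main stalk subunit of ATP synthase, had 0 to 4, and Ndufs6 had 0 to 7. RefSeq lists a pseudogene with the synonym Ndufs6, and whether that entry is the parent cannot be told from the tables. The remaining ones were the smaller entries of Ndufv3 and Ndufa10l1 and the muscle forms above.

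Sex was set apart from the treatment in a fit with both terms, over 5 females and 3 males. Of the 92 members, 0 were called for sex by edgeR, 0 had an unadjusted p under 0.05, and 0 were called by DESeq2. Over all tested genes edgeR called 0.00856%, 1.89% had an unadjusted p under 0.05, and DESeq2 called 0.120%. The log2 differences of females against males had a median of -0.01 and ranged from -0.75 for Cox6b2 (standard error 0.36) to 0.32 for Atp5md (standard error 0.44). The mitochondrial genes lay between -0.27 and -0.03. With 1 BAPN male, whether the treatment acted alike in both sexes was not tested. With sex as a covariate, 10 nuclear members and 1 mitochondrial one, Mt-nd4, were called higher with BAPN, out of 930 calls over all genes. The 10 include the 2 entries that led to the choice.

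The genes that serve the complexes were described from lists of the same kind, whose shares called higher stand beside the 7.50% of all tested genes. Cytochrome c (Cycs), which carries electrons from complex III to complex IV, was at 88.4 ± 11.3 CPM (BAPN) against 37.4 ± 7.53 CPM (vehicle) and was called higher (log2 fold change 1.24, standard error 0.16, FDR 0.00576). Of 20 genes of electron carriers and coenzyme Q synthesis, 3 were called higher (15.0%) and 0 lower, and the median log2 fold change was 0.21. After Cycs the largest change among those called was that of Pdss1, a synthase of the coenzyme Q side chain (1.00, FDR 0.0235). Of 43 tested assembly factors, edgeR called 3 higher (6.98%, against 7.50% of all tested genes) and 0 lower, with a median of 0.27. DESeq2 called 9 of the 43 higher, where it called 13.3% of all tested genes higher. At an unadjusted p under 0.05 in edgeR, 13 of the 43 were higher, as were 17.4% of all tested genes. Pet100, for complex IV (0.87, FDR 0.0148), and Ndufaf5, for complex I (0.58, FDR 0.0352), were the largest of the 3 called. Of 29 genes of mitochondrial transcription, RNA processing and translation, 3 were called higher (10.3%) and 0 lower, with a median of 0.34. Slirp, which stabilizes mitochondrial messenger RNAs (0.88, FDR 0.00965), and Mterf4, which acts in mitochondrial ribosome assembly (0.73, FDR 0.0446), led this list.

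Of 34 tested genes of the mitochondrial membranes and of protein import, 11 were called higher (32.4%) and 0 lower, with a median of 0.33. The small import chaperone Timm9 had the largest increase (log2 fold change 1.11, FDR 0.0158), followed by the folding chaperone Hspe1 (0.89, FDR 0.00806). Of 18 genes of the citric acid cycle and pyruvate dehydrogenase, 3 were called higher (16.7%) and 0 lower, with a median of 0.25, and the largest of those called were Pdhx (0.83, FDR 0.0346) and Pdha1 (0.60, FDR 0.0132), both of pyruvate dehydrogenase. In these 5 lists DESeq2 also called 0 lower, and at an unadjusted p under 0.05 1 assembly factor and 1 gene of the carriers and coenzyme Q were lower. Among females alone the medians were 0.10 for electron carriers and coenzyme Q, 0.23 for assembly factors and 0.44 for mitochondrial transcription, RNA processing and translation. They were 0.24 for the membranes and import and 0.13 for the citric acid cycle and pyruvate dehydrogenase. The 10 tested regulators of mitochondrial biogenesis, among them Nrf1, Gabpa and Yy1, whose motifs were searched above, had a median of -0.09. By edgeR 0 were called in either direction, with 1 higher and 1 lower at an unadjusted p under 0.05, and DESeq2 called 1 higher.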

How the data were processed

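RNA from the outflow veins of 8 rats was depleted of ribosomal RNA and made into stranded libraries. The authors deposited, per rat, whole-number counts of reads on 32623 rat Ensembl genes with their names, not normalized. The submitters' processing notes name bcl2fastq 2.17, Trim Galore and STAR. The counter, its strand setting and the genome build are not given in the sources used here, so coordinates are printed only for RefSeq promoters. Tested genes had base means of 100 or more over the libraries, as in the paper's methods, and held 99.5% to 99.66% of the counts. The groups were compared with edgeR 4.0.16 in R 4.3.3 (TMM, quasi-likelihood test, treatment as the only term, Benjamini-Hochberg adjustment over all tested genes). Standard errors came from limma 3.58.1. DESeq2 1.42.0, closest to the DESeq test of the methods, was an alternative, and 15 genes for which it gave no adjusted p stayed out of its counts. Sex was a term beside treatment in a fit of its own.

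The members and lists were chosen with earlier results of these data known. Named genes were Ndufs5 and Uqcrb, the mitochondrial genes, the member of each complex with the highest mean CPM, the called members with the largest and smallest changes, isoforms, the catalytic core, Atp5if1, and up to 2 called genes of each other list. A gene that this rule names in complex I is not reported here. The summing of entries with the same name, the classes by pseudogene number and the remarks on Ndufa11, Ndufa4, Atp5md and the untested members were chosen after seeing the values. Names were matched to the RefSeq tables of assembly GRCr8, in which 84 of 98 member names were found, and a name with no listed pseudogene counts as 0. The name patterns miss Ndufab1, since they ask for a digit where this name has a letter. A planned description by protein length was not run, since no protein table was used here. Replicates of a group differed beyond counting noise (chi-square per degree of freedom 68.58 to 320.8), so each counts once. On simulated counts for the comparison of the groups, with a log2 change of 1.5 in 200 of 11682 genes, 179 were recovered by edgeR with 11 false calls, and for sex 174 with 7. Alternatives were DESeq2, other scalings and filters, libraries thinned to the smallest total, leaving out 1 library at a time, a block for the replicate number, females alone, and a sex covariate.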

Additional observations from a re-analysis of the deposited data

Results flagged for a closer look

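A library was set apart from the other 3 of its group where its gap to the nearest of them took up more of the range of the group than Dixon's critical value for 4 samples allows. This held for 7 of 194 values tested, or 3.61%, and chance alone gives about 1 in 20. In BAPN 2, Cox6b2 was at 4.97 CPM, above the other BAPN veins. Also in BAPN 2, Ndufv1 at 62.7 CPM and Ndufv3 at 56.3 CPM were below them. Mt-nd4l was at 277 CPM in BAPN 4, above the 171 to 177 CPM of the other BAPN veins. In Vehicle 2, Ndufc2 at 41.7 CPM and Atp5po at 86.5 CPM were above the other vehicle veins. Ndufc1 was at 7.80 CPM in Vehicle 4, below the other vehicle veins.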

How the results depend on the processing

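The 19 nuclear and 2 mitochondrial calls, out of 1957 over all genes, were 20, 2 and 1971 with DESeq2's size factors, 19, 2 and 1957 with scaling from nuclear genes alone, 19, 2 and 1876 with edgeR's own filter, and 19, 2 and 1887 with libraries thinned to equal totals. DESeq2 called 31, 6 and 3248. Mitochondrial calls were 1 with total counts only and 1 without a filter on low counts. With sex as a covariate the counts were 10, 1 and 930, and among females alone 2, 0 and 89. Both nuclear counts include the 2 entries that led to the choice, which were the only members called among females. Leaving out each library in turn gave 5 to 20 nuclear members called higher, 0 to 1 called lower (Cox6b2, without Vehicle 2), 0 to 3 mitochondrial members called higher, and 397 to 2215 over all genes. Nuclear calls numbered 5 in the absence of Vehicle 1, 8 of Vehicle 4, 9 of Vehicle 3, and 7 of either BAPN 3 or BAPN 4, all including the 2 entries that led to the choice. Of the other 19 called members, 3 (Ndufb3, the larger Cox6b1 entry and Cox7a2l2) were called in all of these fits. Across the alternatives the nuclear median stayed between 0.24 and 0.39 and the mitochondrial one between 0.34 and 0.56, and no called member changed sign. For sex, 0 members were called also by DESeq2, with scaling from nuclear genes and with each library left out in turn. The causes of these changes were not tested. The replicate number as a block gave 5, 0 and 556 calls, the 2 entries that led to the choice included. Same-numbered BAPN and vehicle libraries deviated from their group means with correlations of 0.0944, -0.265, 0.269 and -0.14, and 1 BAPN library correlated best with its own number, so the numbers were not taken as pairs. With libraries thinned to equal totals, all 92 tested members kept their direction and their side of the threshold.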

Other observations

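Large protein complexes outside the respiratory chain were read in the same fit, in which 7.50% of all tested genes were called higher and 9.25% lower. Of 71 tested genes of the mitochondrial ribosome, which translates the 13 mitochondrial messages, 18 were called higher with BAPN (25.4%) and 0 lower (0 lower also at an unadjusted p under 0.05 and by DESeq2), with a median log2 fold change of 0.37. Of 84 genes of the cytosolic ribosome, 35 were called higher (41.7%) and 2 lower (2.38%), with a median of 0.54. Of 38 proteasome genes, 22 were called higher (57.9%) and 0 lower (0 lower also at an unadjusted p under 0.05 and by DESeq2), with a median of 0.42. These medians were 0.36, 0.61 and 0.38 among females alone.

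Glycolysis makes ATP without oxygen. Of 16 tested genes, 3 were called higher (18.8%, against 7.50% of all genes) and 1 lower (6.25%, against 9.25%), with a median of 0.52 over all rats and -0.02 among females. The genes called higher with the largest change were Pgk1 (log2 fold change 1.00, FDR 0.0419) and Pkm (0.87, FDR 0.0407). Pgk1 was at 579 ± 133 CPM (BAPN) against 289 ± 106 CPM (vehicle), as mean ± SD over 4 rats each. Pfkm, the muscle form of phosphofructokinase, was called lower (-0.68, FDR 0.0373), at 17.4 ± 2.00 CPM (BAPN) against 27.9 ± 7.06 CPM (vehicle).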
